A study of Mus musculus with 8 samples.

Results

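The genes described here are 37 named genes of neuronal differentiation and synaptic function: components of the neuronal cytoskeleton and growth cone, neuronal RNA-binding proteins, synaptic and secretory proteins, adhesion molecules, transmitter enzymes and neuronal transcription factors. They were taken by name from a table of 26747 assembled loci measured in mouse stomach at E13.5 (days of gestation). The members were chosen with earlier results of these data known. A locus was found under 36 of the 37 names. These gave 37 loci, because Hand2 occupied 2 loci at the same coordinates, and all 37 passed the filter on low counts together with 14574 loci in all. The remaining name, Map2, was listed under its older symbol Mtap2 at the coordinates of Map2. Its values are given, but it is not part of the counts unless so stated.

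The wild type group, 4 libraries, carried none of the engineered alleles. The other group, also 4 libraries and called YAP5SA here, carried Nkx3.2Cre and R26-YAP5SA, in which Cre recombinase made from the Nkx3-2 locus turns on a form of the coactivator YAP that escapes inhibition by Hippo kinases. There was no library with Cre and no YAP5SA, so an effect of the Cre allele cannot be told apart from one of active YAP. RNA came from whole stomach, and in such tissue fewer neurons and less RNA per neuron cannot be told apart. The labels do not say whether a library was made from a single embryo or a pool, so the p-values speak only for the spread among these 8 libraries, which may be technical. Libraries held 6.33 M to 6.92 M fragments in wild type and 7.29 M to 8.51 M in YAP5SA.

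Enteric neurons descend from neural crest cells that enter the gut wall, spread through it and differentiate within the mesenchyme. Nkx3-2 is a gene of the stomach mesenchyme, not of the crest. A young neuron first makes microtubule and growth cone proteins and RNA-binding proteins of the Hu family, and adds neurofilaments, synaptic vesicle proteins and transmitter enzymes as it matures. Enteric neurons use acetylcholine, nitric oxide and peptides among their transmitters, and some cells of the lineage pass through a transient phase with catecholamine enzymes.

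In YAP5SA stomachs 21 of the 37 loci were lower at an adjusted p under 0.05 in edgeR's quasi-likelihood test, against 9.85% of all loci tested. None was higher in that test, against 9.06% of all loci; 2 were higher at an unadjusted p under 0.05, and DESeq2 called 1 higher. With the replicate number as a block, 23 were called lower and 2 higher. The fall was at least 2-fold for 11 of the 37, against 3.75% of all loci. The 4 YAP5SA libraries lay below all 4 wild type libraries at 22 loci, against 12.4% of all loci, and above them at 0, against 10.9%. The median log2 fold change (YAP5SA minus wild type) was −0.76 over the 37 loci and −0.01 over all loci, with a range from −3.26 for Klhl1 to 0.81 for Cntn1. Together the members took 0.142% to 0.162% of the fragments in wild type libraries and 0.107% to 0.117% in YAP5SA libraries. The low-count filter lay at about 1.44 CPM (counts per 1e6 fragments), here without scaling between libraries. All other CPM values are scaled between libraries. All 4 YAP5SA libraries were above it at 34 loci, of which 20 were called lower, with a median of −0.76. Klhl1, the lower end of the range, was below the filter in every YAP5SA library and passed only through its wild type libraries. It is included in the counts of loci called lower and of falls of at least 2-fold.

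**Figure D1:**
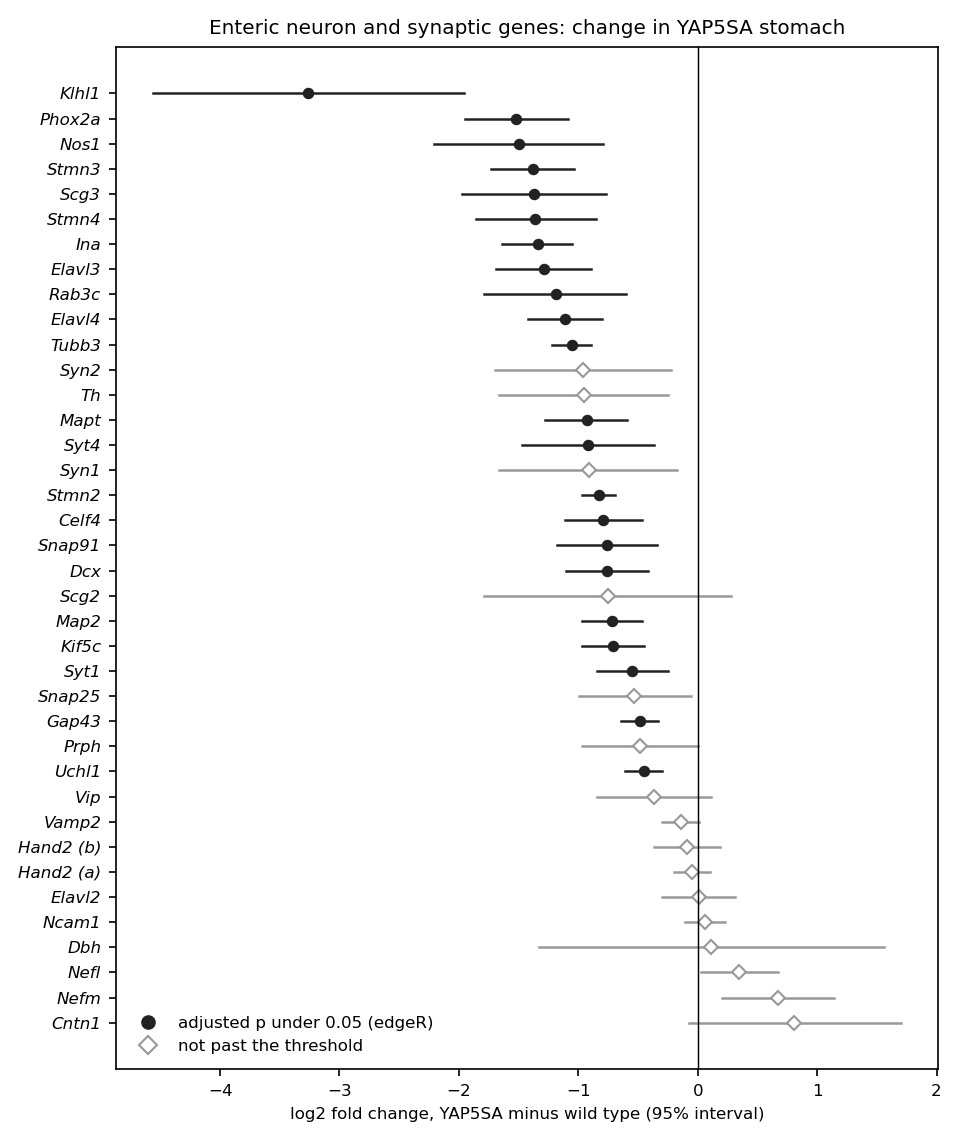
Log2 fold change of each member locus with its 95% interval, ordered by log2 fold change, filled circles for loci called by edgeR and open diamonds for the others. Values run from −3.26 (Klhl1) to 0.81 (Cntn1), and every filled circle lies left of 0.

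On the length-corrected scale (FPKM, fragments scaled to transcript length and library size), wild type levels ran from 1.07 for Klhl1 and Dbh to 77.1 for the smaller Hand2 locus. Gap43 at 65.3 ± 1.65, Stmn2 at 59.8 ± 3.21, Tubb3 at 58.5 ± 4.03, the larger Hand2 locus at 57.9 and Uchl1 at 52.9 ± 3.26 FPKM (SD, n = 4) followed. Stmn2, Tubb3 and the larger Hand2 locus differed by less than their SD, so their order is not resolved. In these deposited counts the number of fragments at a locus did not grow in proportion to library depth. The slope of log count on log depth within groups was 2.16 up to 0.02 fragments per exonic base, 1.55 at 0.02 to 0.05, 1.09 at 0.05 to 0.1, 0.55 at 0.2 to 0.3 and 0.43 at 0.3 to 0.5. Members ranged from 0.0041 to 0.334 with a median of 0.0366, which lies in the range where counts grew more than in proportion, and the YAP5SA libraries were the deeper ones. Changes at the densest members (Hand2, Tubb3, Gap43 and Uchl1) may be understated beside those at sparse ones. The slopes rest on 4 libraries per group with a narrow range of depth, and YAP5SA replicate 1 was the deepest at 8.51 M fragments. Depth therefore cannot be told apart from other differences between libraries. If the slopes do reflect depth, greater depth would lower CPM at dense loci and raise it at sparse ones. In the deeper YAP5SA libraries that would enlarge a fall at dense loci and hide part of one at sparse loci. The balance was not tested. Sizes of fall are for that reason not ranked between dense and sparse members.

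The RefSeq promoter table (GRCm38.p6) matched 26 of the 37 names, with 39 windows of 300 bases, 250 before the start and 50 after it. The windows were searched on both strands for 6 motifs, and the upstream 250 bases of 6 genes that fell are shown so that the matches can be read beside their changes. They are Elavl3 (chr9:22052024-22052273, minus strand), Elavl4 (chr4:110287528-110287777, minus), Ina (chr19:47014431-47014680, plus), Stmn3 (chr2:181314501-181314750, minus), Rab3c (chr13:110280207-110280456, minus) and Kif5c (chr2:49619036-49619285, plus). Capitals mark matches, written as they read on the gene's strand.
Elavl3: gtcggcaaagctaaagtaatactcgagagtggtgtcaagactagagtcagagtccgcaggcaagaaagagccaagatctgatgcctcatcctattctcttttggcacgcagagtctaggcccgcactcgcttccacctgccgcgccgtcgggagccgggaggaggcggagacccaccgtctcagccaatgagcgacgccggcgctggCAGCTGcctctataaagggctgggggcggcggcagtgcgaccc
Elavl4: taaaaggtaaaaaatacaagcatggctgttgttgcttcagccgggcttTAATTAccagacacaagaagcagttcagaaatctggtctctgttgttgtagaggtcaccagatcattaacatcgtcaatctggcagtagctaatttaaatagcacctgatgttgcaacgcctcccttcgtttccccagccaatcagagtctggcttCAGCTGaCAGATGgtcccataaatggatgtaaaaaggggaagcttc
Ina: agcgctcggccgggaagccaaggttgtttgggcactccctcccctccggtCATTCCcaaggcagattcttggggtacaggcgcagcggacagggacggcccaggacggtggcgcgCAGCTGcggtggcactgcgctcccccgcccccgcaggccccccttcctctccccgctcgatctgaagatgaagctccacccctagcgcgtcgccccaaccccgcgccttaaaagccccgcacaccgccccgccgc
Stmn3: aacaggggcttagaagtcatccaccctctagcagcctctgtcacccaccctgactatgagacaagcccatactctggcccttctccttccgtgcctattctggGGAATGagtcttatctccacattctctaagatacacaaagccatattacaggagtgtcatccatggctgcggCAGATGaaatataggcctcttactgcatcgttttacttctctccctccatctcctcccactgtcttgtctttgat
Rab3c: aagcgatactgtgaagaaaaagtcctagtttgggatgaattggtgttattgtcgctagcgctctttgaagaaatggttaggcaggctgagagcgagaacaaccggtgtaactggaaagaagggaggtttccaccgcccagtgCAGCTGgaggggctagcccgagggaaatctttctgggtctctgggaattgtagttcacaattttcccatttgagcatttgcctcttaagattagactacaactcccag
Kif5c: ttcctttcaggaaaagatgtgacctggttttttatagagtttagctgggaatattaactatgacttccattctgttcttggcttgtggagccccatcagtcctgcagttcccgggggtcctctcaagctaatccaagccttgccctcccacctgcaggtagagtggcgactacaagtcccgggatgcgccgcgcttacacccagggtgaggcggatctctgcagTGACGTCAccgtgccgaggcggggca
The E-box CAGCTG, bound by basic helix-loop-helix factors, stands 43 bases before the start in Elavl3, 46 in Elavl4, 135 in Ina and 108 in Rab3c. The E-box CAGATG stands 39 bases before the start in Elavl4 and 75 in Stmn3, and the homeodomain core TAATTA 202 before it in Elavl4. Elavl4 has several annotated starts, and the window shown belongs to one inside its assembled locus. The upstream bases at the outer start (chr4:110351912-110352161) held none of the 6 motifs. GGAATG, the core that TEAD partners of YAP bind, is 147 bases before the start of Stmn3 and, as CATTCC, 200 before that of Ina. The cAMP response element TGACGTCA is 26 bases before the start of Kif5c.

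Over the whole windows, CAGCTG was found in 6 of the 26 matched members (Elavl2, Elavl3, Elavl4, Ina, Rab3c and Syt1) and in 18.3% of the 27025 genes of the table. CAGATG was found in 7 (Elavl4, Hand2, Klhl1, Nos1, Snap91, Stmn3 and Syn2) against 19.2%, and TAATTA in 3 (Dcx, Elavl4 and Hand2) against 6.12%. GGAATG was found in 5 (Cntn1, Ina, Scg2, Stmn3 and Syn2) against 16.6%. TGACGTCA was found in 4 (Kif5c, Scg2, Syn1 and Th) against 2.03%, and TTCAGCACC, from the left arm of the RE1 element that the neuronal repressor REST binds, in 2 (Scg2 and Syn1) against 0.433%. In the sequences shown no match overlaps another. Of the 26 matched members 16 were called lower, with Map2 included in both counts. Among those with a match the called number was 5 of 6 for CAGCTG, 5 of 7 for CAGATG, 2 of 3 for TAATTA, 2 of 5 for GGAATG, 1 of 4 for TGACGTCA and 0 of 2 for TTCAGCACC, counts too small to compare. A match describes letters in the window and not binding.

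Of the 13 cytoskeletal and growth cone loci, 10 fell, 5 of them at least 2-fold, and the median log2 fold change was −0.83. The neuronal β-tubulin gene Tubb3 (chromosome 8, 123411564 to 123422010, mm10) was at 95.3, 82.8, 96 and 89.1 CPM in the wild type libraries and at 47.7, 40.9, 45.7 and 40.5 CPM in the YAP5SA libraries. All YAP5SA libraries lay below the lowest wild type library. The gene model Gm20388 overlaps this locus, as Gm49318 does that of Elavl3 and Gm5136 that of Syt1, and fragments of such overlaps cannot be told apart. Tubb3 fell by 1.05 ± 0.07 on the log2 scale (SE, n = 4, adjusted p = 2.1e-05), to 48.2% of wild type.

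The 3 stathmins among the members, genes whose products bind tubulin and tune microtubule turnover, fell. Stmn2 (chromosome 3, 8509414 to 8561604), a growth cone marker of young axons, went from 87.2, 81, 87.1 and 83.7 CPM to 50.1, 51, 45.2 and 44.4 CPM, a fall to 56.3% (adjusted p = 3e-05). Stmn3 (chromosome 2, 181306459 to 181314500), whose promoter is shown above, was at 25.3, 23.7, 31.9 and 23.7 CPM against 12, 10.5, 8.36 and 9.12 CPM, with a log2 fold change of −1.38 ± 0.16 (adjusted p = 0.00031). Neither gene's groups overlapped. Stmn4 (chromosome 14, 66344372 to 66361680) fell from 20.4 ± 3.64 to 7.94 ± 2.39 CPM (SD, n = 4), to 39.1% of wild type (adjusted p = 0.0024).

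Gap43 (chromosome 16, 42248561 to 42340651), a membrane protein of the growth cone, was at 70.4, 73.5, 74.4 and 74.5 CPM in wild type and 51.5, 53.9, 57.7 and 46.1 CPM in YAP5SA. It fell to 71.5% of wild type (log2 fold change −0.48 ± 0.07, adjusted p = 0.0011), with no overlap of the groups. The microtubule-binding genes fell too: Dcx, made by migrating young neurons, to 58.9% (adjusted p = 0.0063), Mapt, which encodes tau, to 52.3% (0.0024), and the axonal kinesin motor Kif5c to 61% (0.0022). Map2, the dendritic microtubule protein, went from 73.7 ± 5.92 to 44.8 ± 7.36 CPM (SD, n = 4) at the locus with its older symbol, a fall to 60.9% (adjusted p = 0.0018). Dcx lies at chromosome X, 143855842 to 143933219, Mapt at chromosome 11, 104231436 to 104332093, Kif5c at chromosome 2, 49619314 to 49774778, and Map2 at chromosome 1, 66175329 to 66442583.

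Klhl1 (chromosome 14, 96105265 to 96519034), an actin-binding protein of the Kelch family, was sparse, with 109 fragments in all wild type libraries and 13 in all YAP5SA libraries. It was at 4.45, 2.65, 3.9 and 5.84 CPM against 0.958, 0.553, 0 and 0.134 CPM, without overlap. The log2 fold change was −3.26 ± 0.59, with a 95% interval from −4.56 to −1.96 (adjusted p = 0.0035), and −4.10 without YAP5SA replicate 1. In limma on log2(FPKM + 1), a scale that shrinks the change of low genes, it was −0.90. The size of this fall is therefore known only roughly. All its YAP5SA libraries lay below the low-count filter. Klhl1 was tested only because it was higher in wild type, so its p-value adds no support.

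The intermediate filament genes, which build the core of the axon, did not all fall. Ina (chromosome 19, 46881224 to 47025320), which encodes α-internexin, was at 53.4, 47.3, 61.8 and 49.9 CPM in wild type and 24.2, 20, 23.2 and 16.1 CPM in YAP5SA, a fall to 39.4% with no overlap (log2 fold change −1.34 ± 0.13, adjusted p = 0.00015). Its locus also spans part of the neighbour Nt5c2, so some fragments may come from that gene. Nefm (chromosome 14, 68119545 to 68131371), the medium neurofilament subunit, was at 35.3, 46.3, 46.6 and 46.6 CPM against 40.2, 66.6, 82.3 and 89.6 CPM. The YAP5SA libraries spread over more than the wild type range, and the lowest of them overlapped it. The log2 fold change of Nefm was 0.67 ± 0.21 (95% interval 0.20 to 1.14, adjusted p = 0.051), 0.63 with the replicate number as a block (adjusted p = 0.0078) and 0.87 without YAP5SA replicate 1 (0.0013).

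Nefl (chromosome 14, 68083861 to 68089062), the light subunit and the neighbour of Nefm, showed 52.1, 49.2, 61.5 and 47.1 CPM against 50.2, 63.4, 84.7 and 70.2 CPM, a log2 fold change of 0.35 ± 0.15 (adjusted p = 0.12, and 0.045 with the replicate block). The groups overlapped through the same YAP5SA library as for Nefm. The assembled loci of Nefl and Nefm do not overlap, but the span of Nefm annotated in GENCODE covers the Nefl locus. Whether fragments of the pair are shared was not tested. Prph (chromosome 15, 99053913 to 99058978), peripherin, the filament protein of peripheral neurons, was at 56.6, 46, 62.4 and 45.6 CPM against 53.1, 43.1, 30.8 and 23.3 CPM and, with the groups overlapping, did not pass the test (−0.48 ± 0.22, adjusted p = 0.16; −0.69 and 0.037 without YAP5SA replicate 1). Within libraries the ratio of Nefl to Ina ran from 0.943 to 1.04 in wild type and from 2.07 to 4.36 in YAP5SA, and that of Nefm to Ina from 0.661 to 0.978 and from 1.66 to 5.57. The heavy subunit Nefh, not a member, fell from 5.63 ± 0.45 to 2.4 ± 0.183 CPM (SD, n = 4, adjusted p = 0.0025). The pairs in these ratios were chosen after their values were seen, and no test was made.

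**Figure D2:**
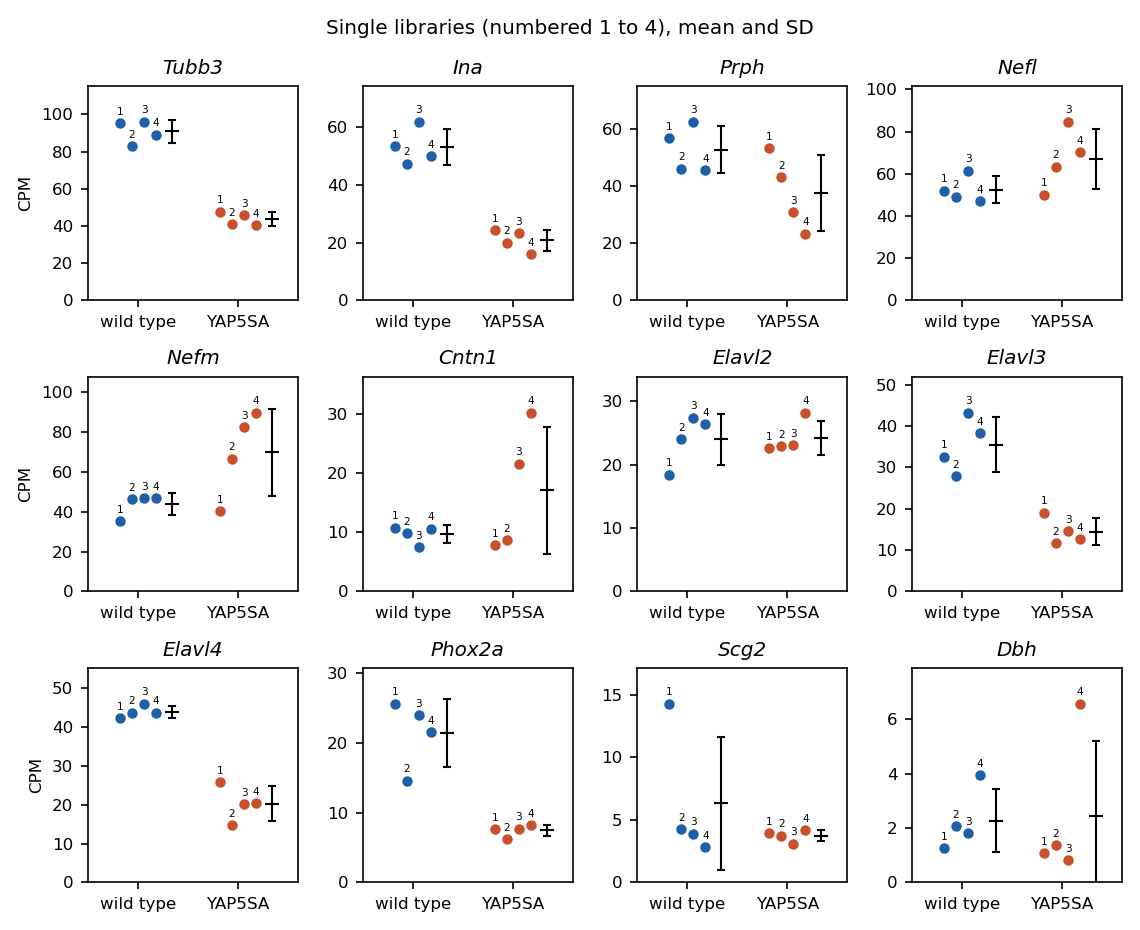
Level in CPM of 12 members in each library, with the mean and SD of each genotype. Tubb3 and Ina separate the genotypes, Nefl and Nefm spread upward in YAP5SA, and Cntn1 is high in 2 of the 4 YAP5SA libraries (21.6 and 30.2 CPM).

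Of the 4 RNA-binding genes, 3 fell. Elavl4 (chromosome 4, 110203737 to 110351911), which encodes HuD, was at 42.3, 43.7, 46 and 43.7 CPM in wild type and 25.8, 14.8, 20.2 and 20.4 CPM in YAP5SA. It fell to 46.3% of wild type, with a log2 fold change of −1.11 ± 0.14 (adjusted p = 0.00049). Elavl3 (chromosome 9, 22015005 to 22052023), which encodes HuC, was at 32.6, 27.8, 43.2 and 38.2 CPM against 19, 11.6, 14.6 and 12.6 CPM, a fall to 41% (−1.29 ± 0.18, adjusted p = 0.00093). The groups did not overlap for either gene. Celf4, a regulator of splicing and of neuronal messages, fell to 57.8% (adjusted p = 0.0036; chromosome 18, 25477620 to 25753983).

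The third Hu family gene here, Elavl2 (chromosome 4, 91250727 to 91399984), which encodes HuB, was at 18.4, 24, 27.4 and 26.4 CPM in wild type and 22.6, 22.9, 23.1 and 28.2 CPM in YAP5SA. The groups overlapped, with a wild type library lowest and a YAP5SA library highest, and the log2 fold change was 0.01 ± 0.14 with a 95% interval from −0.30 to 0.31 (adjusted p = 0.98). That interval does not reach the values of Elavl3 and Elavl4; the difference between the genes was not tested. The ratio of Elavl2 to Elavl4 within libraries ran from 0.436 to 0.603 in wild type and from 0.879 to 1.55 in YAP5SA, without overlap, while that of Elavl3 to Elavl4 ran from 0.636 to 0.938 and from 0.618 to 0.785. These ratios too were picked after the values were seen and carry no test.

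**Figure D3:**
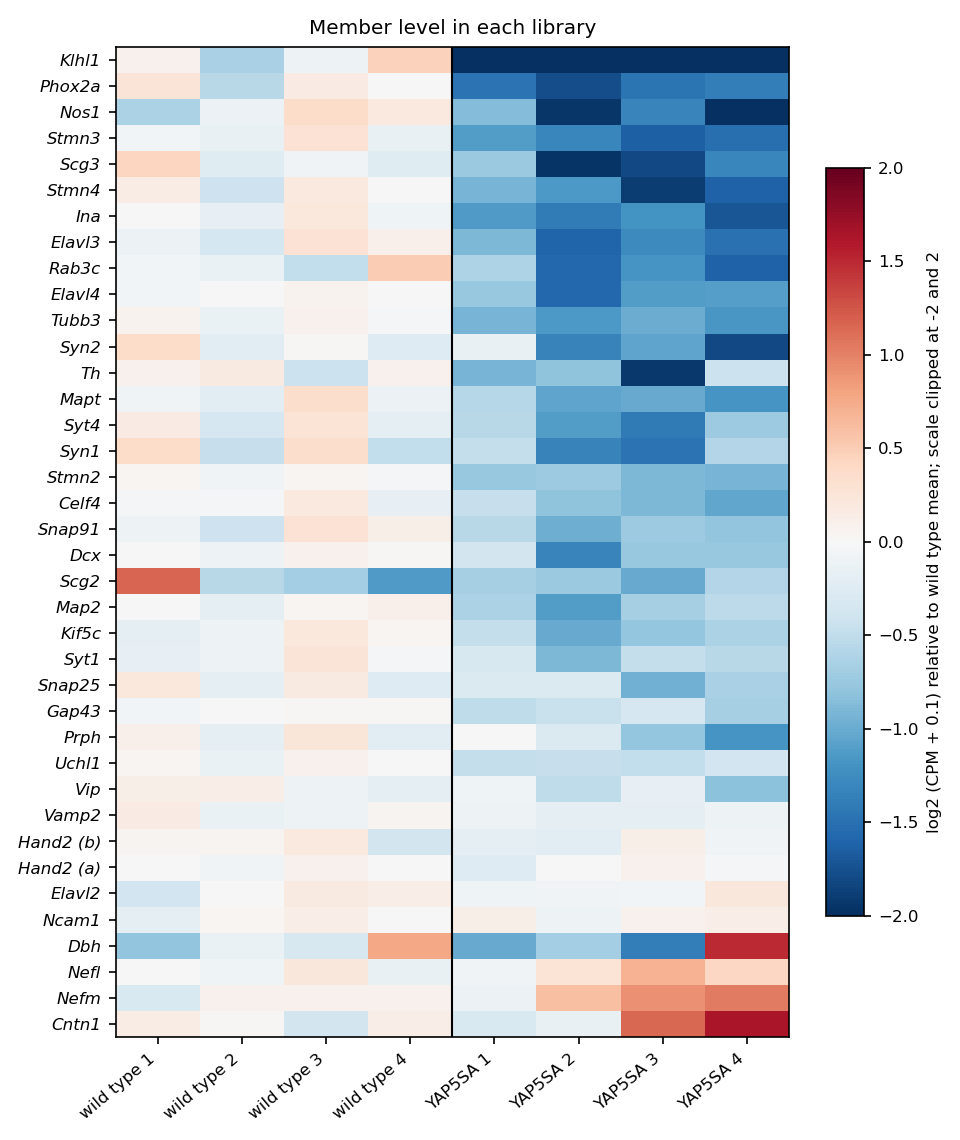
Heat map of log2(CPM + 0.1) of each member locus in each library relative to the wild type mean, with colours limited to −2 to 2. The YAP5SA columns are below the wild type mean at most loci, while at Nefl, Nefm and Ncam1 3 of the 4 are above it and at Cntn1 2 of the 4.

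Of the 10 synaptic and secretory genes all had a log2 fold change below 0, against 51.4% of all loci, and 5 fell, with a median of −0.84. Rab3c (chromosome 13, 110054187 to 110280206), a vesicle GTPase, was at 19.5, 18.5, 14.5 and 28.9 CPM against 13.2, 6.77, 8.9 and 6.57 CPM (−1.19 ± 0.27, adjusted p = 0.011). Syt1 (chromosome 10, 108497650 to 109010975), the calcium sensor of fast release, fell to 68.5% (adjusted p = 0.017) and its relative Syt4 to 52.7% (0.026; chromosome 18, 31437808 to 31447415). Snap91, a clathrin adaptor of vesicle recovery, fell to 59.1% (adjusted p = 0.018; chromosome 9, 86765936 to 86880372). These 4 had no overlap between genotypes, but Snap91, Syt1 and Syt4 were the only ones of the 21 to lose the call in some alternative; without wild type replicate 3 their adjusted p was 0.059, 0.054 and 0.076.

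Scg3 (chromosome 9, 75643366 to 75684056), a granin of dense-core granules, was at 30.2, 19, 21.4 and 18.9 CPM in wild type and 13.4, 5.67, 6.34 and 8.99 CPM in YAP5SA, without overlap (−1.37 ± 0.27, adjusted p = 0.0056). Scg2 (chromosome 1, 79434669 to 79440090), another granin, was at 14.3, 4.26, 3.9 and 2.84 CPM against 3.95, 3.73, 3.1 and 4.16 CPM and did not pass (−0.75 ± 0.47, adjusted p = 0.32; 0.04 without wild type replicate 1). The first wild type library was highest for both granins. It was also highest for the enteroendocrine list, gut hormone cells that share granins with neurons: the summed level of that list was 416 CPM there, 75 to 148 CPM in the other wild type libraries and 100 to 158 CPM in YAP5SA. None of its 10 tested loci passed edgeR's test (adjusted p from 0.086 to 0.99), and no tested marker was at 0 in a library. The part of these cells in the granin values was not tested.

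Vamp2 and Snap25, which encode SNARE proteins of vesicle fusion, did not pass the test. Of genes outside the members, Stx1a, their syntaxin partner, named after its values were seen, was called higher (log2 fold change 0.30, adjusted p = 0.048). Vamp2 (chromosome 11, 69088524 to 69092385), the vesicle SNARE, was at 94.6 ± 9.39 and 85.6 ± 2.88 CPM (SD, n = 4; −0.14 ± 0.07, adjusted p = 0.19). Snap25 (chromosome 2, 136713450 to 136782428), its partner on the plasma membrane, was at 13, 9.7, 12.7 and 9.32 CPM against 9.1, 9.12, 5.67 and 7.11 CPM. Its groups did not overlap, by a narrow margin, and it missed the threshold (−0.53 ± 0.21, adjusted p = 0.11). The synapsins, which tether vesicles, missed it as well: Syn1 was at −0.91 ± 0.34 (adjusted p = 0.087) and Syn2 at −0.96 ± 0.33 (0.073, and 0.012 with the replicate block). Syn1 lies at chromosome X, 20797791 to 20920918, in a locus that also spans Araf and Timp1, and Syn2 at chromosome 6, 115134902 to 115282626, in a locus that also spans Timp4.

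Among the 3 genes of adhesion and protein turnover only Uchl1 fell. Uchl1 (chromosome 5, 66676121 to 66687234), the neuronal ubiquitin hydrolase also known as PGP9.5, was at 53.7, 47.6, 55.3 and 51.8 CPM against 37.5, 37.7, 37 and 40.1 CPM, a fall to 73.1% without overlap (−0.45 ± 0.07, adjusted p = 0.0015). Ncam1 (chromosome 9, 49502138 to 49799069), an adhesion molecule that mesenchymal and muscle cells also make, was at 206 ± 18.7 and 215 ± 16.4 CPM (SD, n = 4; 0.06 ± 0.08, adjusted p = 0.64). Cntn1 (chromosome 15, 92051165 to 92341967), an axonal adhesion protein, was at 10.8, 9.85, 7.5 and 10.6 CPM in wild type and 7.79, 8.7, 21.6 and 30.2 CPM in YAP5SA. Of the YAP5SA libraries 2 lay within the wild type range and 2 above it, and the difference of 0.81 ± 0.40 did not pass (adjusted p = 0.2). Without YAP5SA replicate 4 it was 0.40.

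YAP5SA replicates 3 and 4, highest for Cntn1, were also highest for the skeletal muscle list, at 41.8 and 32.2 CPM summed, beside 12.5 and 21.6 CPM in the other YAP5SA libraries and 6.32 to 13.3 CPM in wild type. Of its 6 markers 4 were tested and 2 rose, Myod1 (log2 fold change 3.53, adjusted p = 0.0074) and Myog (2.74, 0.0091), the factors that start the muscle programme. Myf5 and Ckm were below the filter, with Myf5 at 0 in a YAP5SA library and Ckm at 0 in libraries of both genotypes. The same 2 libraries were above the other YAP5SA libraries for Nefm. The part of such cells in the values of Cntn1 and Nefm was not tested.

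Of the 3 transcription factor loci, 1 fell. Phox2a (chromosome 7, 101818313 to 101838337), a homeodomain factor of autonomic and enteric neurons, was at 25.6, 14.6, 24 and 21.5 CPM in wild type and 7.67, 6.22, 7.69 and 8.18 CPM in YAP5SA, a fall to 34.9% without overlap (−1.52 ± 0.19, adjusted p = 0.00056). Its locus reaches into Inppl1, so fragments of that gene may be included. Hand2 (chromosome 8, 57304263 to 57324517) is a helix-loop-helix factor of enteric neurons that mesodermal tissues make as well. It did not pass at either locus, with 120 ± 5.16 against 116 ± 10.7 CPM (adjusted p = 0.67) and 36.3 ± 5.79 against 34.2 ± 3.87 CPM (adjusted p = 0.7, SD, n = 4). An antisense gene, Hand2os1, lies there, and since strand use is not stated in the labels or headers, reads of the gene and its antisense partner cannot be told apart.

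The transmitter genes were sparse, and 1 of 4 fell. Nos1 (chromosome 5, 117842205 to 117954381), the neuronal nitric oxide synthase of inhibitory enteric neurons, was at 8.1, 11.6, 16.3 and 14.4 CPM against 6.83, 3.18, 4.99 and 2.68 CPM, a fall to 35.3% (−1.50 ± 0.32, adjusted p = 0.0084). Th (chromosome 7, 142892776 to 142899966), the first enzyme of catecholamine synthesis, was at 5.24, 5.59, 3.6 and 5.21 CPM against 2.52, 2.76, 1.21 and 3.62 CPM. Its groups overlapped by a single library and it missed the threshold (−0.95 ± 0.32, adjusted p = 0.062, and 0.029 with the replicate block). Dbh (chromosome 2, 27165507 to 27183204), the later enzyme that makes noradrenaline, was at 1.27, 2.06, 1.8 and 3.95 CPM against 1.08, 1.38, 0.81 and 6.57 CPM, so no direction can be read (0.11 ± 0.65, adjusted p = 0.94; −1.03 without YAP5SA replicate 4). Vip (chromosome 10, 5639218 to 5647614), a peptide of inhibitory neurons, was at 7.89 ± 0.87 and 6.1 ± 1.38 CPM (SD, n = 4; −0.37 ± 0.21, adjusted p = 0.28).

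Library order repeated between members. Over the 21 called loci, YAP5SA replicate 1 was the highest YAP5SA library at 17 and the lowest at 0, and wild type replicate 3 was the highest wild type library at 15. The number called lower ran from 18 without wild type replicate 3 to 23 without YAP5SA replicate 1.

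Other neuronal genes, on 5 lists of the same kinds, were lower at 48 and higher at 12 of 120 tested loci, with a median of −0.53. Of all loci tested 9.85% were lower and 9.06% higher, so the number that rose was near the share of all loci. On the list of synaptic release 13 of 35 loci fell and 2 rose, with Sncg (−0.95), Syt11 (−0.41), Amph (−1.17) and Syp, synaptophysin (−0.81), at the smallest p. On the list of cytoskeleton, axon and adhesion genes 13 of 24 fell and 2 rose, led by Rtn1 (−0.97), Nefh (−1.22), Gprin1 (−0.79) and the axonal adhesion gene L1cam (−1.07). Of the neuronal factors and RNA-binding genes 10 of 24 loci fell and 3 rose. The zinc finger factor Insm1 was at −1.64 (adjusted p = 0.00097), while the T-box factor Tbx20 was at 3.25 (9.3e-05).

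Of the transmitter and receptor genes 6 of 20 fell and 3 rose, and of ion channel loci 6 of 17 fell and 2 rose. The nicotinic receptor subunit Chrna3 (−1.28), the peptide genes Cartpt (−1.12) and Gal (−2.21) and the channel subunits Kcnip1 (−2.21) and Scn3b (−1.17) fell. The Kcnip1 locus also spans Kcnmb1, so fragments of that gene may be included. Gria2, an AMPA receptor subunit, was at 25.1, 21.5, 29.5 and 23.8 CPM in wild type and 59.2, 110, 116 and 74.9 CPM in YAP5SA (1.85 ± 0.21, adjusted p = 0.00032), without overlap. Cacna2d2, a calcium channel subunit, rose as well (2.59 ± 0.31, adjusted p = 0.00042). Slc5a7, the choline transporter of cholinergic neurons, named here after its values were seen, rose from 15.3 ± 3.61 to 34.1 ± 7.13 CPM (SD, n = 4, adjusted p = 0.0027). The other cholinergic genes on the list, Slc18a3 (−0.05, adjusted p = 0.94) and Chat (0.39, 0.62), did not pass.

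**Figure D4:**
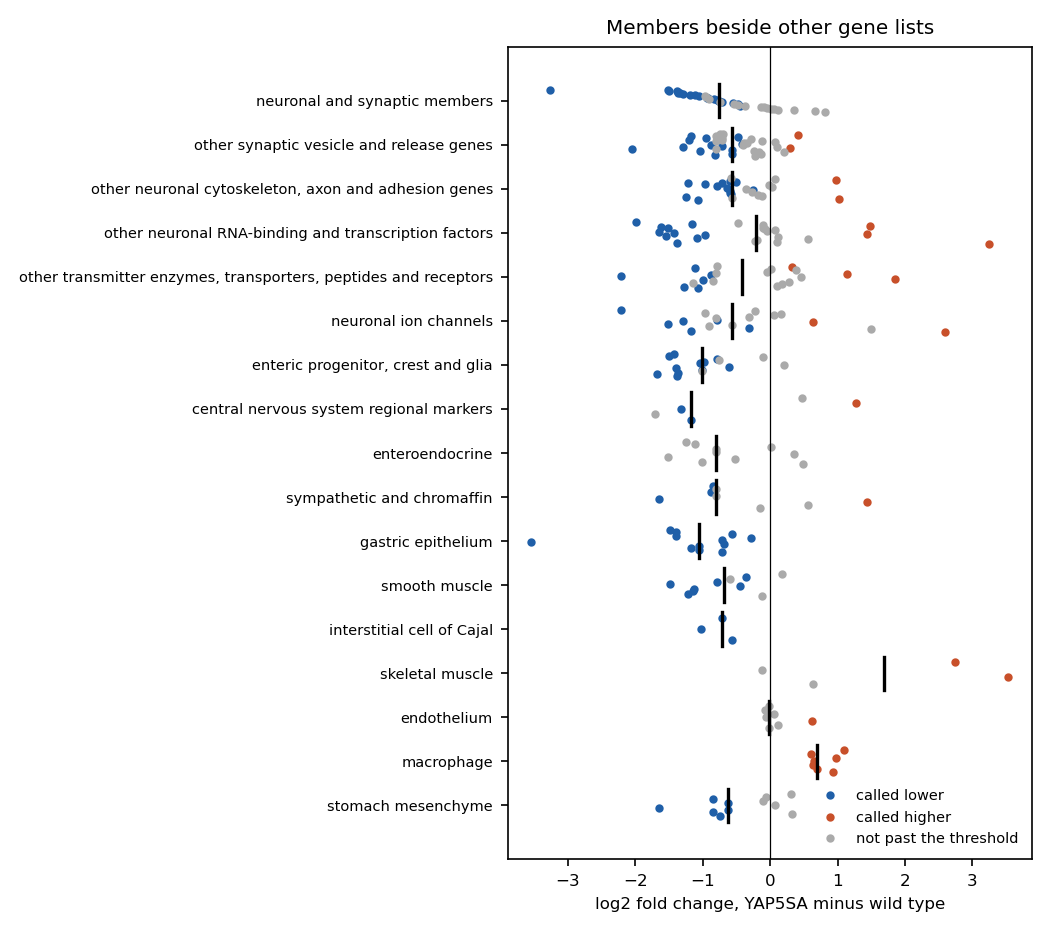
Log2 fold change of each tested locus of the members and of the other marker lists, with the median of each list as a bar. The medians are −0.76 for the members, −1.01 for enteric progenitors, crest and glia, −1.05 for gastric epithelium and 0.69 for macrophages.

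Markers of enteric progenitors, crest and glia were lower at 11 of 15 loci (median −1.01; the other 4 had an adjusted p from 0.15 to 0.4), with a summed level of 883 to 997 CPM in wild type and 456 to 586 CPM in YAP5SA. Sox10 (−1.39), Gfra1 (−1.01), the receptor gene Ret (−1.38) and Foxd3 (−1.68) had the smallest p. Several lists outside the neural lineage held lower genes as well: 12 of 12 gastric epithelial genes, 7 of 10 smooth muscle genes, 3 of 3 genes of interstitial cells of Cajal (Kit, Ano1 and Etv1) and 6 of 11 loci of stomach mesenchyme. Of 7 endothelial markers none was lower and 1, Kdr, rose (0.62, adjusted p = 0.00032), with a list median of −0.02. Macrophage markers were higher at 7 of 7, with 302 to 407 CPM summed in wild type and 550 to 789 CPM in YAP5SA. How far these shifts in other cell types bear on the share of neuronal fragments was not tested.

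Central nervous system genes were used to check the label of the tissue. Olig2 and Neurod6 were at 0 in all 8 libraries, and Otx2, Tbr1, En1 and En2 were at or near 0. Others of the list were present: Hoxb8 at 31.3 to 69.5 CPM over the 8 libraries, Dlx1 at 38 ± 3.71 CPM in wild type (SD, n = 4) and Pax6 at 17.5 CPM in wild type replicate 1 and at most 4.41 CPM elsewhere. That library was also the highest for the enteroendocrine list. Genes of the list are not all confined to the central nervous system, so their presence does not show such tissue. Of the 5 loci of that list that passed the filter, Dlx1 (−1.32) and Dlx2 (−1.18) fell and Emx2 (1.27) rose. Of the 8 tested sympathetic and chromaffin markers, Insm1 (−1.64), Slc18a2 (−0.88) and Cyb561 (−0.84) fell and Gata3 (1.44) rose. The list summed to 369 to 534 CPM in wild type and 325 to 351 CPM in YAP5SA. Most of that was Cdkn1c, at 225 to 241 CPM in wild type and 185 to 224 CPM in YAP5SA. The wild type maximum was replicate 1, with Chga at 55.6 and Chgb at 123 CPM, both also on the enteroendocrine list. The other wild type libraries summed to 369 to 384 CPM. The sum is therefore not a measure of sympathetic cells. Pnmt, the enzyme of adrenaline synthesis, was at 0 or under 1 CPM in every library.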

How the data were processed

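Messenger RNA of whole mouse stomach at E13.5 was profiled in 4 wild type and 4 YAP5SA libraries. Per the submitters' processing notes, the build was mm10 and the tools included TopHat2 2.0.9, Cufflinks 2.2.1 and Cuffdiff. Strand use and duplicate handling are not given in the sources used here. The deposited fragment values of each library are, per the file headers, estimated counts (10.9% to 11.3% not whole), and the deposited FPKM values were scaled between libraries by the authors. The file numbers libraries from 0 and the labels from 1, and they were matched in that order of numbers, which affects names and the replicate block only.

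Estimated counts were rounded. Unnamed loci (3582, with 1.85% to 1.97% of fragments) stayed out. Loci were tested with edgeR 4.0.16 (R 4.3.3; TMM, filterByExpr with 10 fragments and 15 in total, robust quasi-likelihood fit, genotype as the only term) and adjusted by Benjamini-Hochberg over 14574 loci, two-sided, at 0.05. Every adjusted p comes from that fit unless another tool, the replicate block or a left-out library is named. CPM uses TMM-scaled library sizes. DESeq2 1.42.0 and limma 3.58.1 were alternatives, with limma on log2 of FPKM plus 0.1 or 1. The step was tested on simulated data. Libraries with the same number deviated together from their group means (correlations 0.22, 0.143, 0.141 and 0.206). The data thus point to pairs, which the labels do not state. The reported fit and its p-values leave such pairs out, and only the replicate block uses them. No pair of libraries within a group agreed within counting error.

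Start positions were converted to count from 1. GENCODE M21 (mm10) supplied exon lengths and gene classes, and all members are protein-coding there. The members and lists were chosen with earlier results of these data known. All members are described; of each other list, up to 4 called genes with the smallest p are named (all where 5 or fewer were called), and others named were chosen after their values were seen. Results of some single genes are left out of the text.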

Additional observations from a re-analysis of the deposited data

Results flagged for a closer look

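Of 76 groups of 4 libraries examined over the 38 loci (Map2 included), 4 held a library far from the other 3 by Dixon's criterion, which chance flags in about 1 of 20 groups. For Scg2, wild type replicate 1 was at 14.3 CPM, beside 4.26, 3.9 and 2.84 CPM in the others. For Nefm, wild type replicate 1 was at 35.3 CPM, beside 46.3, 46.6 and 46.6 CPM. For Elavl2, YAP5SA replicate 4 was at 28.2 CPM, beside 22.6, 22.9 and 23.1 CPM. For Dbh, YAP5SA replicate 4 was at 6.57 CPM, beside 1.08, 1.38 and 0.81 CPM.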

How the results depend on the processing

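Over 19 alternatives, 8 of which left out a library, the number of members called lower stayed between 18 and 23, and 18 of the 21 kept their call in every one. The number called higher, 0 in the reported fit, was 1 with RLE factors, 1 with a filter of 1 CPM in 4 libraries, 1 in DESeq2 and 2 with the replicate block (Nefl and Nefm), and ran from 0 to 2 when libraries were left out. With the block 23 members were lower, Syn2 and Th in addition, and it changed no other member's call. Over all loci, 974 to 1521 were lower and 1004 to 1284 higher without a library.

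Values of 4 uncalled genes changed sign, and the cause was not tested: with libraries left out, Elavl2 ran from −0.09 (without wild type replicate 1) to 0.08, and was −0.06 without YAP5SA replicate 4, Scg2 ran from −0.99 to 0.04 (without wild type replicate 1), the larger Hand2 locus from −0.10 to 0.02 (without YAP5SA replicate 1) and Dbh from −1.03 (without YAP5SA replicate 4) to 0.51. The smaller Hand2 locus was at 0.05 in the 3 FPKM fits. Dbh was at −0.13 with the replicate block, −0.30 in limma-voom, −0.24, −0.06 and −0.24 in the FPKM fits with pseudocount 0.1, pseudocount 1 and no filter, and −0.07 without wild type replicate 1. Map2 missed the threshold in the unfiltered FPKM fit (adjusted p = 0.052 in limma). Depth limits Klhl1, Dbh and the other sparse members, and the density of fragments may hide or enlarge part of the change at dense loci.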
